A study of Mus musculus with 8 samples.

Results

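Accessible regions of NIH3T3 cells, a fibroblast line that was established from mouse embryos and divides without limit, were joined into clusters of neighbouring regions. Peaks of 4 ATAC-seq libraries were merged where they shared at least 1 bp, and autosomal regions with a peak in all 4 libraries (shared regions) were kept. Neighbours with at most 12.5 kb between their edges were joined, and units of 5 or more regions were called clusters. Clusters touching 4 peak-dense windows of 200000 bp were left out. This gave 626 clusters, which held 4281 of the 27302 autosomal shared regions (15.7%), out of 45915 merged regions in all. The members were therefore selected on the presence of peaks in every library and on their spacing, and neither the number of regions nor the closeness of neighbours is a finding.

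In ATAC-seq, the Tn5 transposase cuts open chromatin and tags it with adapters, and reads accumulate over promoters, enhancers and other exposed elements. The cells had been cultured for 24 h on G2 or on G128, with 2 libraries in each group. The labels do not say what G2 and G128 stand for. The series concerns hydrogels of polyvinyl alcohol and gelatin, cell adhesion and chromatin. Neither group is labelled as a control, and the differences below are G2 minus G128. The labels do not state whether replicates were separate cultures. The p-values therefore reflect the spread among these libraries, part or all of which may be technical. The series also holds 4 RNA libraries, which were not analysed here.

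Super-enhancers are stretches of DNA in which many enhancers lie close together, bound densely by transcription factors, the Mediator complex and coactivators, and marked by acetylated histone H3. They are usually found by joining neighbouring enhancers, as was done here, and ranking the joined stretches by a ChIP-seq signal. In many cell types they lie near genes that define the identity of the cell, and promoter-rich stretches can give similar clusters of open chromatin. The cell type was not checked against marker genes. No histone mark or bound factor was measured here, promoters were not separated from other elements, and no annotation of mm9, the build of all coordinates below, was used. The stretches are therefore called clusters, and whether they are super-enhancers was not tested.

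The libraries had 42358 and 41585 peaks on G2 and 32540 and 37695 on G128. The mean background, read from the steps of the deposited p-values, was 1.10 and 1.37 overlapping intervals per bp on G2 and 1.05 and 1.41 on G128. Summits are given over the background, as their height divided by this mean. The weakest peaks had summits of 20 and 25 intervals on G2 and of 20 and 26 on G128. A region below that height in any library could not become a member.

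Most shared regions were not in clusters. The joining gave 10904 single regions, 4874 units of 2 to 4 regions and the 626 clusters. The number of units fell with size, with 225 clusters of 5 regions, 247 of 6 or 7, 104 of 8 to 10, and 50 of 11 to 22. Clusters had a median of 6 regions. Their spans ran from 4488 to 110445 bp with a median of 27601 bp, and together covered 19.2 Mb.

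**Figure D1:**
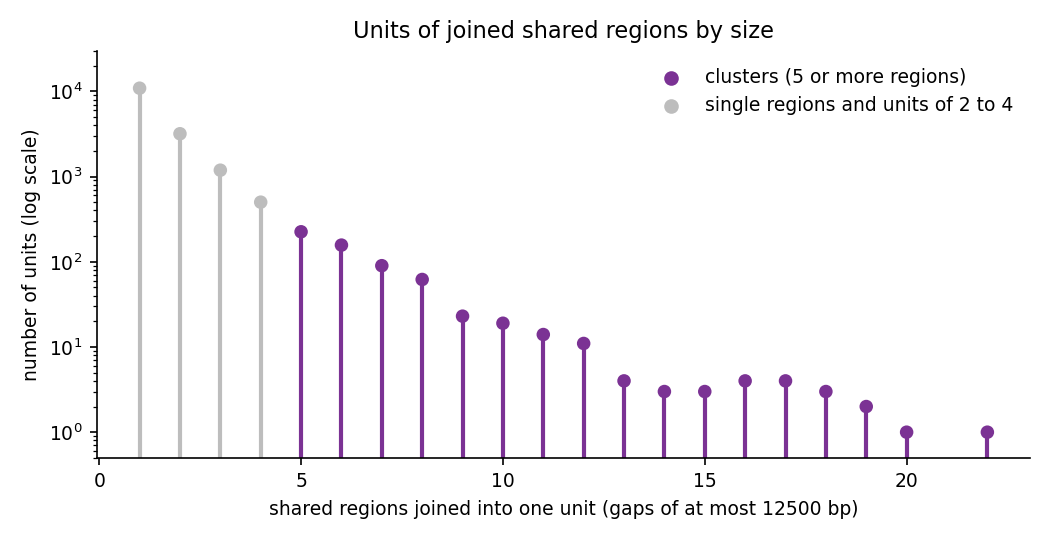
Number of units (log scale) against the number of shared regions joined into each, with clusters of 5 or more regions in purple and smaller units in grey. The counts decline from 10904 single regions to 1 unit of 22 regions, with no break between 4 and 5 regions.

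The limit of 5 regions cut through a continuous range. The 501 units of 4 regions just outside it had a median span of 16243 bp and a median region width of 640 bp, and the 225 clusters of 5 regions just inside had 20376 bp and 629 bp. The median summits of the 5-region clusters were 67.3 and 66.5 times the background on G2 and 49.3 and 58.1 on G128. Those of the 4-region units were 66.4 and 67.2 on G2 and 49.3 and 58.8 on G128. The longest cluster of 5 regions was chr19:8994532-9042001 (47470 bp) and the shortest chr3:129234991-129239478 (4488 bp). Among units of 4 the longest was chr5:38575608-38612260 (36653 bp) and the shortest chr12:53703859-53706009 (2151 bp). The limit on distance lay in an equally smooth range, with 465 gaps between shared regions of 11.5 to 12.5 kb and 471 of 12.5 to 13.5 kb.

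Regions made up a small part of a cluster. Accessible sequence covered a median of 17.4% of the span (5.76 to 74.5%), and the median gap between neighbours was 3333 bp. Of the 3655 gaps inside clusters, 25.4% were under 1000 bp and 10.5% over 10000 bp. Member regions had a median width of 670 bp, against 608 bp in units of 2 to 4 and 622 bp in single regions. Wide regions were more frequent in clusters, where 189 of 4281 (4.41%) exceeded 2000 bp, against 1.65% in units of 2 to 4 and 1.33% of single regions. The median width was 629 bp in clusters of 5 regions and 761 bp in those of 11 to 22. Clusters also tended to lie near each other, and 135 of the 607 gaps between neighbouring clusters of a chromosome (22.2%) were under 100000 bp, with a median of 500109 bp.

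Clusters were spread unevenly over the chromosomes. The share of a chromosome's shared regions that lay in clusters was 25.8% on chromosome 19, 22.9% on chromosome 11, 22.7% on chromosome 15 and 20.5% on chromosome 17. It was 7.54% on chromosome 18, 9.0% on chromosome 13, 9.27% on chromosome 14 and 9.82% on chromosome 1. Chromosome 11 had the most clusters, 79. A chromosome with more closely set regions has more clusters by the rule itself, so these shares describe the spacing of open regions.

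**Figure D2:**
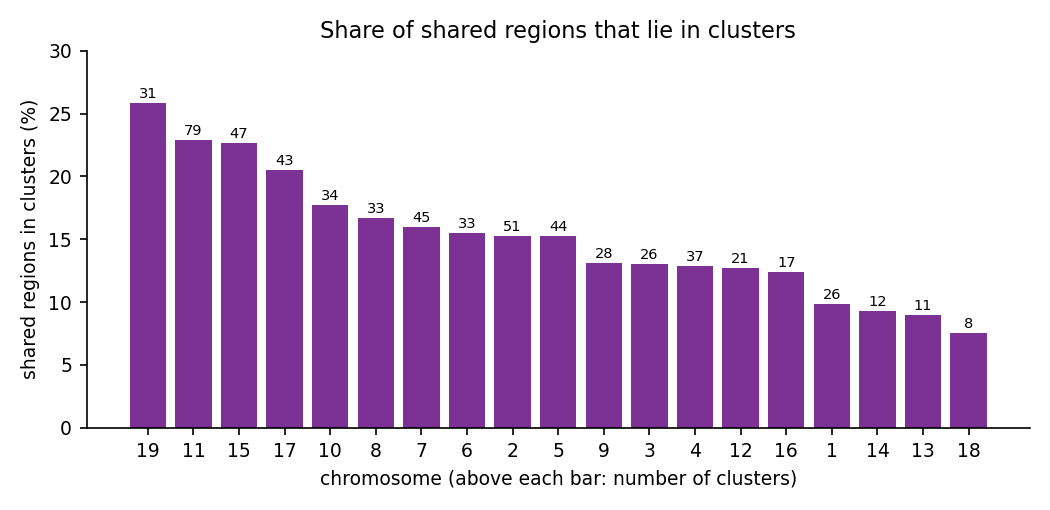
Percent of the autosomal shared regions of each chromosome that lie in clusters, in falling order, with the number of clusters above each bar. Chromosomes 19, 11, 15 and 17 lie above 20% and chromosomes 1, 14, 13 and 18 below 10%.

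The regions of clusters were about as tall as other shared regions. Their median summit was 69.1 and 70.1 times the background on G2 and 51.2 and 61.6 on G128. Single regions had 71.0 and 72.0 on G2 and 53.1 and 59.5 on G128, and units of 2 to 4 had 64.6 and 65.0 on G2 and 47.4 and 55.3 on G128. Cluster regions thus lay between the other classes in 3 of the 4 libraries and slightly above both in G128 replicate 2. Of the cluster regions, 9.93% were among the tallest 10% of shared regions by mean summit, against 8.33% of those in units of 2 to 4 and 12.0% of single regions. At least 1 such region was present in 269 clusters (43.0%), and 30 clusters had 3 or more.

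**Figure D3:**
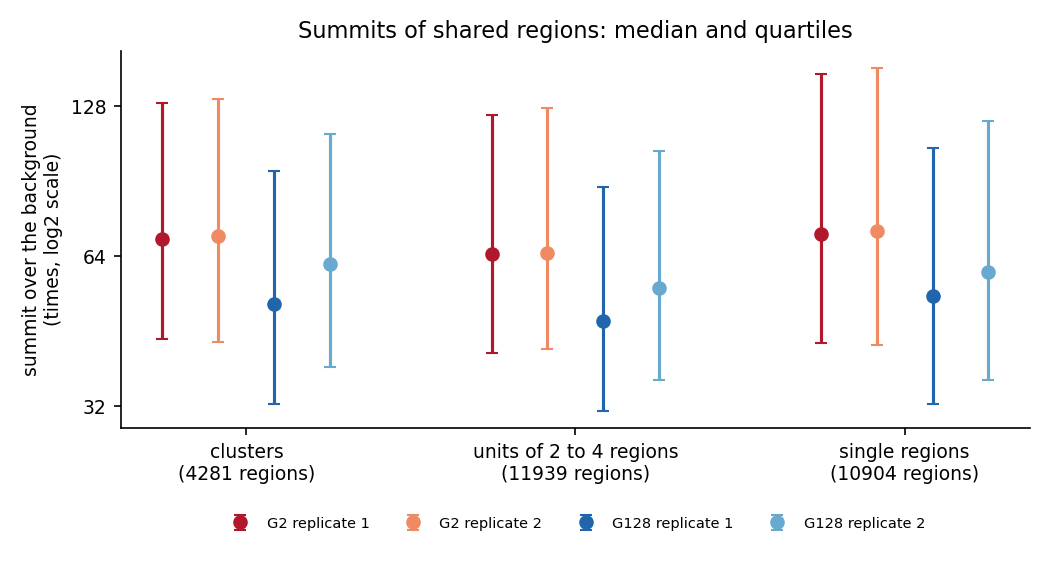
Median summit over the background (points, log2 scale) with the lower and upper quartiles (bars) in each library for regions of clusters, of units of 2 to 4 and single regions. In every class both G2 medians lie above both G128 medians, and the quartiles of the 3 classes overlap widely.

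Both G2 libraries had higher medians than both G128 libraries in the cluster regions. Averaged over the libraries, the medians were 69.6 ± 0.712 for G2 and 56.4 ± 7.37 for G128 (SD, n = 2 per group), with a ratio of 1.23. On the log2 scale the difference was 0.31, and the two-sided exact permutation test over 6 assignments gave p = 0.33, the smallest it can give. It was 0.18 without G128 replicate 1, the library with the fewest peaks, 0.44 without G128 replicate 2, and 0.60 with the summed signal in place of the summit. The same difference was 0.34 in units of 2 to 4, 0.35 in single regions and 0.33 over all shared regions. This general rise on G2 was thus not particular to clusters. It is a height over each library's own background. Whether it came from the cells or from the quality of the libraries was not tested.

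Within a cluster the regions differed in height, and the highest of several regions lies above their median by construction. The ratios below were not compared with those of other groups of regions. The highest summit was a median of 2.76 and 2.70 times the cluster's median summit on G2, and 2.62 and 2.60 times on G128. The strongest region carried a median of 37.6 and 37.2% of the cluster's summed signal on G2 and 41.0 and 39.4% on G128. It was the same region in all 4 libraries in 483 clusters (77.2%). It lay at an end of the cluster in 33.5 and 33.7% of clusters on G2 and in 34.5 and 34.0% on G128. Regions at the ends and inside had near-equal median summits, for example 69.1 and 69.1 in G2 replicate 1 and 60.2 and 61.6 in G128 replicate 2.

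Clusters ranked high among all units by summed signal, a sum that grows with the number of regions. The signal is the value that the authors' peak caller gave each peak. It is used here to rank within a library, and it was compared between groups only as an alternative to the summit. Clusters were 3.81% of the units and held 16.9 and 17.0% of the signal on G2 and 16.9 and 17.7% on G128. Of the 100 units with the most signal, 86 and 86 were clusters on G2 and 82 and 84 on G128. In all 4 libraries 87 units were among the first 100, and 74 of them were clusters. Single regions took the first 3 ranks, so a sum over many regions was not the only way to a high rank. The first, chr9:2999951-3038445, was 38495 bp wide, against a median of 622 bp for single regions. The others were chr1:24618318-24623076 and chr17:39979887-39985827, and whether these regions hold repeats was not tested. At the other end, the lowest-ranked cluster stood at 8817 and 9355 on G2 and at 9734 and 9079 on G128, of 16404 units.

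The clusters with the best mean rank were chr6:47598880-47636633 (10 regions), chr6:47689155-47741018 (18), chr19:5770661-5850873 (17), chr4:88400727-88452520 (16), chr19:5424034-5510862 (20) and chr15:76018523-76039347 (7). They were followed by chr10:79601455-79640493 (13), chr3:88268384-88337487 (18), chr11:68872620-68939784 (19) and chr19:45080012-45157129 (17). The chromosome 15 cluster needed only 7 regions for its rank, since they covered 70.6% of its 20825 bp and had a geometric mean summit of 175 and 180 on G2 and of 127 and 157 on G128. The chromosome 19 cluster at 5770661 held the widest stretches among these, with neighbouring regions of 5329 and 7025 bp at its end. In the wider of the pair the summit was 274 and 286 times the background on G2 and 201 and 254 on G128.

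The cluster with the most regions was chr11:98561286-98671730, with 22 regions over 110445 bp. Its summits were uneven, which the plot along the cluster shows. The first 12 regions, whose centres lay within 63.2 kb of the start, had summits of 28.2 to 81.8 times the background on G2 and of 22.8 to 83.6 on G128. A tall region of 1055 bp at chr11:98634790-98635844 had 403 and 403 on G2 and 274 and 359 on G128. The geometric mean summit of the cluster was 79.6 and 81.6 on G2 and 57.9 and 69.0 on G128. Its scaled difference, the mean over its regions of the log2 summit minus each library's median over all shared regions, G2 minus G128, was 0.02 (SE 0.042, limma adjusted p = 0.871).

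The other clusters with the most regions differed in how they stood between the groups. Chr11:117774056-117856949 (18 regions) had a geometric mean summit of 110 and 110 on G2 and of 72.4 and 88.0 on G128, with a scaled difference of 0.13 (SE 0.047, limma adjusted p = 0.234). Chr11:68872620-68939784 (19 regions) had 75.8 and 81.9 on G2 and 67.8 and 84.1 on G128, with a scaled difference of -0.27 (SE 0.051, limma adjusted p = 0.0546). In chr6:52107698-52172223 (19 regions) the values were 63.7 and 67.04 on G2 and 45.2 and 53.8 on G128. There 16 of the 19 regions had scaled differences above 0, while the mean was 0.07 (SE 0.045, limma adjusted p = 0.475). None of these passed the test, although neighbouring regions of the last lay mostly on one side. Chr15:100993940-101100600 spread 17 regions over 106661 bp, with 81.0 and 81.6 on G2 and 61.2 and 72.0 on G128, and its scaled difference was -0.04 (SE 0.045, limma adjusted p = 0.735).

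A pair of clusters had the look of regular arrays, a pattern that was noticed after the values had been seen. For each cluster the longest run of neighbouring regions was found whose width differed by at most 15% and whose mean summit differed by at most 30% from the region before. The run was 1 or 2 regions in 447 and 165 clusters and 3 regions in 12. In chr4:88400727-88452520 it was 15 of the 16 regions, and in chr6:47598880-47636633 it was 8 of the 10. No cluster had a run between 3 and 8.

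The 15 regions of the chromosome 4 run were 1217 to 1326 bp wide, and their centres lay a median of 2927 bp apart (2893 to 10306 bp). The spacing was broken by 1 long step, which the plot along the cluster shows between the third and the fourth region of the run. Their summits were 297 to 384 in G2 replicate 1 and 314 to 419 in G2 replicate 2. They were 234 to 295 in G128 replicate 1 and 249 to 317 in G128 replicate 2. Every region of the run thus stood far above the median of cluster regions.

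The 8 regions of the chromosome 6 run were 2011 to 2096 bp wide with centres 4279 to 4375 bp apart. Their summits were 359 to 432 and 352 to 415 on G2 and 352 to 402 and 357 to 469 on G128. The other strong chromosome 6 cluster began 52521 bp further on and held wide regions with narrow ones between and after them. Its 8 regions of at least 1500 bp had centres 4358 to 5520 bp apart, and their summits reached 690 and 679 on G2 and 558 and 670 on G128. Its 10 narrower regions had summits of 20.9 to 119 and 20.5 to 121 on G2 and of 23.7 to 94.8 and 24.1 to 121 on G128. Whether the regions of these clusters repeat the same sequence, and how reads that match several places were treated, was not tested.

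**Figure D4:**
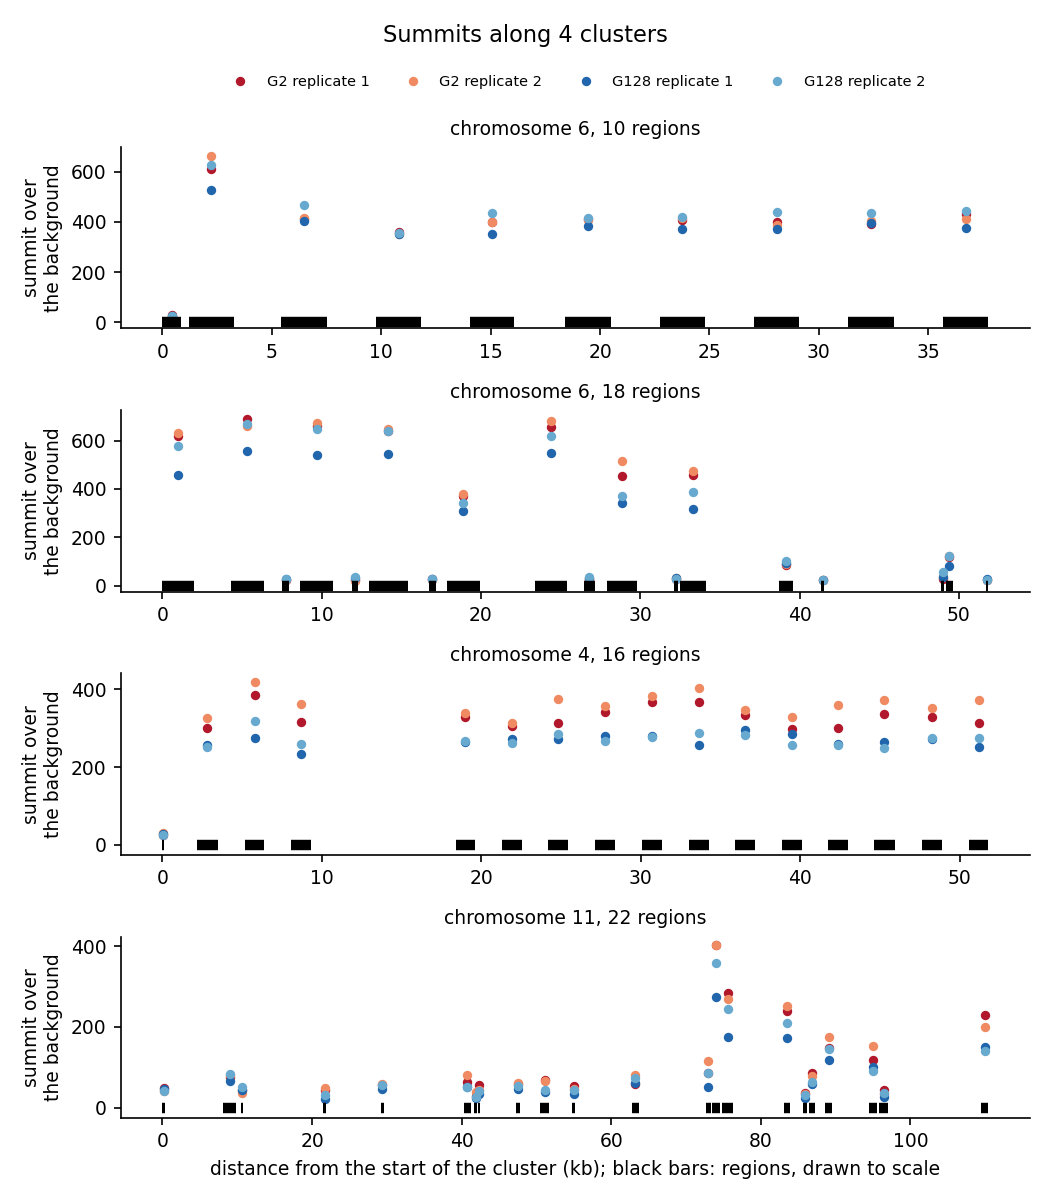
Summit over the background of each region (points, one colour per library) against the distance of its centre from the start of the cluster in kb, with regions drawn to scale as black bars, for both strong chromosome 6 clusters, the chromosome 4 cluster and the chromosome 11 cluster of 22 regions. Within the runs of 15 and 8 regions described above the summits are of similar height, while the first region of the chromosome 4 cluster and the first and second of the chromosome 6 cluster of 10 regions stand apart from them.

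The comparison of G2 with G128 was made on these scaled summits, so it shows changes relative to the general rise on G2. Single regions were tested with limma over all 27768 shared regions, sex chromosomes included. No member region was called at a Benjamini-Hochberg adjusted p of 0.05, as in the whole set (0% called). At an unadjusted p under 0.05 there were 625 of 4281 member regions (14.6%), with 427 lower and 198 higher on G2, against 14.2% of all shared regions. The share in clusters was thus near that of the whole set. Lower regions also outnumbered higher ones in units of 2 to 4 (1035 and 689) and among single regions (823 and 634). Whether the lean was stronger in clusters was not tested.

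A fit whose prior variance follows the mean summit, chosen after the data were seen, called 34 member regions higher and 38 lower on G2. These are 0.794% and 0.888% of the member regions, beside 0.601% and 0.864% of all shared regions. The called regions lay in 63 clusters, of which 8 held more than 1, and no cluster held calls in both directions. In chr13:23493556-23545750 a region of 691 bp starting at 23504214 had summits of 30.02 and 25.6 times the background on G2 and of 50.3 and 53.1 on G128, with no overlap. Its scaled difference was -1.23 (limma adjusted p = 0.000341 in this fit). In chr19:45080012-45157129 a region of 1238 bp had summits of 139 and 147 on G2 and of 48.4 and 79.4 on G128, a scaled difference of 0.88 (limma adjusted p = 0.000962 in this fit), the highest in any cluster.

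Whole clusters were tested as the mean of their regions' scaled log2 summits, with limma over all 16417 joined units. No cluster was called higher on G2 (0.104% of all units were), and 5 of 626 were called lower (0.28% of all units were). At an unadjusted p under 0.05 there were 129 clusters (20.6%), 97 lower and 32 higher, against 14.8% of all units. A cluster averages more regions than most units, and its error is smaller, with a median SE of 0.074 in clusters of 5 regions and of 0.053 in those of 11 to 22. Among single regions 847 were lower and 648 higher at this unadjusted p. Whether the higher share in clusters follows from the gain in precision was not tested.

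**Figure D5:**
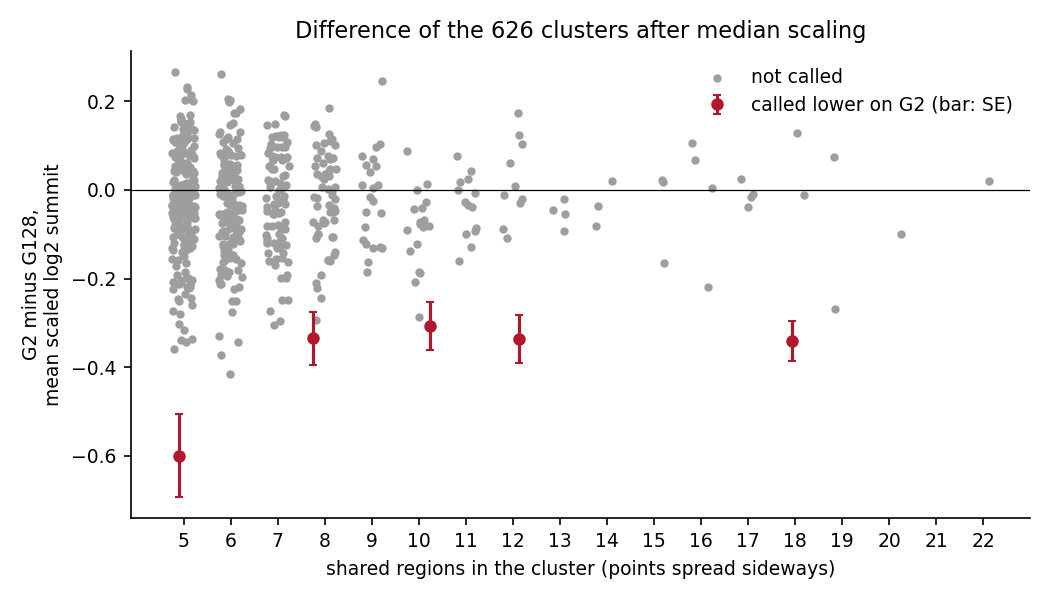
Difference of the mean scaled log2 summit, G2 minus G128, of each cluster against its number of regions, with the 5 clusters called lower on G2 in red with their SE. The differences run from -0.60 to 0.27, most lie close to 0, and they spread less in larger clusters.

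Of the called clusters, chr1:172994070-173012265 had the lowest difference. Its 5 regions had a geometric mean summit of 32.5 and 30.3 times the background on G2 and of 38.6 and 37.0 on G128, so that both G2 values lay below both G128 values before scaling, which held for no other cluster. The scaled difference was -0.60 (SE 0.093, limma adjusted p = 0.0314), and all 5 regions were below 0. Its region of 371 bp starting at 173004380 had summits of 42.8 and 34.3 on G2 and of 64.5 and 63.1 on G128, while the first region, of 927 bp, had 36.4 and 32.9 on G2 and 29.4 and 30.5 on G128. The region of 260 bp starting at 173001929 had 24.6 and 22.6 on G2 and 26.6 and 21.3 on G128. These values lay near the weakest peaks over the background, and how far low heights shaped the difference was not tested.

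The other 4 called clusters overlapped between the groups before scaling, and their calls are relative to the general rise on G2. In chr6:47689155-47741018 the geometric mean summit was 114 and 117 on G2 and 109 and 123 on G128, a scaled difference of -0.34 (SE 0.044, limma adjusted p = 0.0236). The 10 narrower regions of this cluster had a median scaled difference of -0.51 and were all below 0. The 8 wide regions had a median of -0.13, with 6 below 0. The lowest summits of the narrower regions were 20.9 and 20.5 times the background on G2 and 23.7 and 24.1 on G128. They lay near those of the weakest peaks once the heights of these are also divided by the mean background. Given the general rise on G2, a region of equal height in all libraries has a scaled difference below 0. How much of the contrast with the wide regions follows from this was not tested. Chr6:47598880-47636633 had 320 and 316 on G2 and 293 and 333 on G128, a scaled difference of -0.31 (SE 0.054, limma adjusted p = 0.0424) with all 10 regions below 0.

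In chr13:23493556-23545750 the geometric mean summit was 58.7 and 57.3 on G2 and 52.5 and 64.6 on G128. The scaled difference was -0.34 (SE 0.055, limma adjusted p = 0.0342), with 11 of 12 regions below 0. Chr19:12076713-12088182 had 63.0 and 66.9 on G2 and 59.0 and 71.8 on G128, a scaled difference of -0.34 (SE 0.060, limma adjusted p = 0.0424) with 7 of 8 regions below 0. All 5 calls were lost without G2 replicate 2, with adjusted p-values of 0.0649 to 0.178, and with no covariate for the prior variance, with 0.184 to 0.308. They were also lost with quantile normalization (0.0873 to 0.0993), with the summed signal (0.148 to 0.219) and without scaling (0.138 to 0.984). Without G2 replicate 1, 3 of the 5 were lost (0.0575 to 0.155), without G128 replicate 1 likewise 3 (0.0521 to 0.0695), and without G128 replicate 2 there was 1 (0.0514), while 10 clusters in all were then called lower.

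The other clusters at the low end were chr10:21493352-21521797, chr8:19698693-19724801, chr11:68849449-68859751 and chr3:145339226-145377365, with scaled differences of -0.42, -0.37, -0.36 and -0.34 and limma adjusted p-values of 0.115, 0.0783, 0.0814 and 0.0583. Every region of these clusters had a difference below 0. The clusters at the high end were chr5:122283675-122299178 at 0.27, chr3:95020935-95051197 at 0.26, chr17:27262056-27327215 at 0.25, chr2:26153708-26181731 at 0.23 and chr7:73717812-73743030 at 0.23, with adjusted p-values of 0.112 to 0.204. In the chromosome 5 cluster the geometric mean summit was 104 and 110 on G2 and 65.9 and 75.9 on G128, and its tallest region, of 2044 bp, had 305 and 322 on G2 and 181 and 204 on G128. The groups did not overlap there before scaling, which held with G2 higher for 87.7% of clusters and 74.3% of all units. The scaled difference did not pass the test.

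Across all 626 clusters the median scaled difference was -0.02, and 367 (58.6%) lay below 0. It was 0.00062 in units of 2 to 4, 0.03 in single regions and 0.02 over all units. For clusters it was -0.0056 without G128 replicate 2, -0.037 without G128 replicate 1 and -0.14 with the summed signal, where all units had -0.069. The values of the groups did not overlap, with G2 lower, in 209 clusters (33.4%, against 21.1% of all units), and with G2 higher in 124 (19.8%, against 25.1%). Before scaling, 549 clusters (87.7%, against 74.3% of all units) were higher on G2 without overlap, 1 was lower (against 1.94% of all units) and 76 overlapped. Clusters average more regions than most units, and after scaling only the share with G2 lower exceeded that of all units. The cause of these differences was not tested. By size, 58.2% of clusters of 5 regions and 60.0% of those of 11 to 22 lay below 0.

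Regions of one cluster seldom all differed in one direction. In 586 clusters (93.6%) some regions had differences above 0 and others below, in 24 all were below, and in 16 all were above. These counts were not compared with those expected from the number of regions per cluster. Whether regions of a cluster shared a direction more often than unrelated regions was therefore not tested. The levels of clusters were closely alike between libraries, with a Pearson correlation over 626 clusters of 0.981 between the G2 libraries, 0.975 between the G128 libraries and 0.953 to 0.961 between groups. The difference between replicates 1 correlated with that between replicates 2 at 0.483 over the clusters, at 0.386 over units of 2 to 4 and at 0.320 over single regions. Points average more regions in clusters, and these values are descriptions.

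Cluster spans also held regions that were not shared. There were 994 of them, or 23.2 per 100 shared regions, of which 412 had a peak in 1 library and 237 lacked one only in G128 replicate 1. Regions present in every G2 library and absent from both G128 lists (G2-only) numbered 151, against 6 with the reverse pattern (G128-only). Inside clusters these were 3.53 and 0.14 per 100 shared regions, against 13.8 and 0.608 over all autosomes, where 3774 and 166 were found. The autosomal values also count regions far from any shared region, so these rates cover unlike areas and show no depletion in clusters. At least 1 G2-only region lay in 127 clusters (20.3%), and no cluster held more than 3. These regions played no part in the choice of clusters.

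Inside units of 2 to 4 the G2-only regions were 2.19 per 100 shared regions. Clusters have more room between their regions, and per Mb of span there were 7.86 inside clusters and 6.53 inside units of 2 to 4. With 12.5 kb added on each side there were 6.12 per 100 shared regions around clusters, 6.73 around units of 2 to 4 and 9.51 around single regions. Per Mb of these wider windows the values were 7.52, 4.96 and 3.70, so the order of the classes depended on whether regions or length were counted. When every list was cut to equal length by signal, the value inside clusters was 1.22 per 100.

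The number of clusters built from each library's own peaks followed the length of its list. With all peaks there were 1498 and 1478 clusters on G2 and 978 and 1283 on G128. The library means were 1488 ± 14.1 for G2 and 1130.5 ± 216 for G128 (SD, n = 2 per group), with a ratio of 1.32 (two-sided exact permutation test, p = 0.33, the smallest possible). With the strongest 32540 peaks of every list, a comparison added after the data were seen, there were 916 and 891 on G2 and 978 and 957 on G128, a ratio of 0.934 with the same p. The direction therefore depended on the number of peaks compared. From 94.1 to 100% of the 626 clusters overlapped a cluster of the library in either setting. With all peaks this overlap is largely built in, since every member region has a peak in each library.

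Regions found in both libraries of a group gave 1108 clusters on G2 and 668 on G128. All 626 clusters overlapped one in each group, which follows from the rule, since their regions have peaks in both libraries of each group. Of the G2 clusters 486 overlapped none of the 626, and of the G128 clusters 42 overlapped none. The larger number on G2 came with 35969 regions in both libraries, against 27903 on G128.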

How the data were processed

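Each of the 4 ATAC-seq libraries had its own peak list, deposited by the authors on mm9. Per the submitters' processing notes the tools included Bowtie2 2.2.5, SAMtools 1.7 and Genrich 0.5. Their settings, and the treatment of duplicates and of reads matching several places, are not given in the sources used here. The deposited columns are a score, a signal, −log10 p and −log10 q, and the summit offset.

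The deposited −log10 p-values gave back the pileup at each summit, since the lowest 100 distinct values of each list follow whole-number pileups against a log-normal background (largest deviation from a whole number 0.00179). Tests used limma 3.58.1 in R 4.3.3, on summits in log2 units computed from these lists, over all 27768 shared regions or all 16417 joined units, with Benjamini-Hochberg adjustment called at 0.05. The unit test's prior variance followed log2 of the number of regions. Tables were made with pandas 2.3.3, numpy 2.4.6 and scipy 1.17.1 under Python 3.11.15.

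Clusters are named by position under a rule: the 10 with the most regions, the 10 with the best mean rank by signal, the 5 largest and 5 smallest differences, those called, and the longest and shortest at the size limit. The rule also named the 3 with the most regions called in each direction, which gave none. Members and lists were chosen with earlier results of these data known. A 5-region limit and a 12.5 kb gap are settings of the rule, and alternatives concerned them, the scaling, the value per region, the number of peaks, the replicate block and each library. Groups came from the sample titles. Within-group deviations hardly correlated by replicate number (-0.0211 over clusters). The mean background did go with the number, at 1.10 and 1.05 for replicates 1 and 1.37 and 1.41 for replicates 2. Whether libraries of one number were handled together was not tested.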

Additional observations from a re-analysis of the deposited data

Results flagged for a closer look

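Signals outside the main set were counted by the same joining. Chromosome X, left out by the restriction to autosomes, had 459 shared regions and 4 clusters, which held 21 regions, with at most 6 in one. That is 0.871 clusters per 100 shared regions, below the lowest autosomal value of 1.18.

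The left-out windows held 4 clusters, at chr11:3023212-3103367 (28 regions), chr6:114440371-114593447 (68), chr8:19962906-19991111 (10) and chr8:126062326-126153512 (52). Their geometric mean summits on G2 were 84.4 and 78.2, 55.2 and 58.3, 37.9 and 38.9, and 53.7 and 60.5 in that order. On G128 they were 82.4 and 84.8, 49.7 and 61.7, 40.6 and 37.9, and 57.3 and 66.0. The scaled differences were -0.37, -0.30, -0.36 and -0.44, with limma adjusted p-values of 0.0342, 0.0236, 0.0957 and 0.00998. The median summit of their 158 regions had a ratio of G2 to G128 of 0.981, against 1.23 in the 626 clusters. The copy number of these windows was not tested.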

How the results depend on the processing

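The number of clusters followed the rule's settings. It was 171 with a gap of 5000 bp, 1023 with 20000 bp, 1127 with at least 4 regions, 154 with at least 8 and 307 with p 10 times below the weakest of each list. The share of autosomal shared regions in clusters was then 3.75%, 28.6%, 23.02%, 5.80% and 10.0%. Leaving out a library gave 656 to 873 clusters, the most without G128 replicate 1. G2-only regions were 1.46 per 100 shared regions with a gap of 5000 bp and 1.22 with equal numbers of peaks.

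Without median scaling 747 member regions were called higher and 7 lower, and 182 clusters higher and 0 lower, because the general rise on G2 is then included. Those called higher were 17.4% of member regions, against 21.1% of all regions, and 29.1% of clusters, against 33.5% of all units. A minimum mean summit of 40 called 7 regions higher and 5 lower (0.22% and 0.157% of members, against 0.159% each of all), and the prior variance following the mean summit 34 and 38. Quantile normalization, the summed signal and no covariate each left 0 clusters lower, and the cyclic loess 4. Leaving out a library gave 0 to 10 clusters lower, 0 to 1 higher, 0 to 1 regions lower and 0 regions higher. The difference of the median summit then ranged from 0.18 to 0.44, and was 0.60 with the summed signal. Chr6:47598880-47636633 turned to 0.025 without scaling and chr5:122283675-122299178 to -0.040 with the summed signal. The cause was not tested.

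With the replicate number as a block, 44 member regions were called higher and 103 lower, and 3 clusters higher and 36 lower. These are 1.03% and 2.41% of member regions, against 0.987% and 2.36% of all, and 0.479% and 5.75% of clusters, against 1.24% and 2.66% of all units. Within-group deviations hardly correlated by replicate number (0.00279 over all shared regions), though the mean background did go with it. The lists give no counts outside peaks, and 2 libraries a group limit every test.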
